A study of Mus musculus with 12 samples.

Results

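The liver X receptor (LXR) and cholesterol efflux genes were taken from bone marrow-derived macrophages (BMDMs), and these were the rows of 10 genes in the 12 deposited count tables, 10 of the 35275 genes listed. The genes were chosen by symbol, with earlier results of these data known, and all 10 passed the filter on low counts. They were the receptors Nr1h3 and Nr1h2, the exporters Abca1 and Abcg1, the lipoprotein proteins Apoe, Lpl and Pltp, the ubiquitin ligase Mylip, and the lysosomal cholesterol carriers Npc1 and Npc2. Wildtype mouse bone marrow cells had been cultured for 6 days with M-CSF, IL-4 and IL-10, in all groups alike, and with DMSO (the solvent control), olaparib (an inhibitor of poly(ADP-ribose) polymerases, PARPs) or MNA (methyl-nicotinamide, an NAD derivative). Each of the 3 groups had 4 libraries, numbered 1 to 4, from 4 donor mice per the legend of the study. The study's methods give mice of either sex, and the strain, sex and age of each culture's donor are not given in the labels. The cultures are a model of alternatively activated macrophages grown outside the animal.

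LXRs are nuclear receptors that are switched on by oxysterols, which are oxidised forms of cholesterol. Together with a retinoid X receptor they raise transcription of genes that move cholesterol out of the cell, and macrophages that engulf cells or lipoproteins rely on this program to dispose of the cholesterol they take in. The opposite arm of control is run by SREBP2, a factor that is released when sterol in the endoplasmic reticulum is low and that switches on cholesterol synthesis and uptake. Mylip, an LXR target, marks lipoprotein receptors for destruction and so links both arms.

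The libraries held 21146291 to 31446849 counts on genes. The library labelled MNA replicate 2 stood apart from the other 3 MNA libraries and lay with the 4 DMSO libraries on the first 2 principal components, which held 49.8% and 24.9% of the variance. It lay within the range of the DMSO libraries for 7 of the 10 genes and within the range of MNA replicates 1, 3 and 4 for 0 of them. The fit of all 12 libraries counted it among the MNA libraries, and here it is shown apart and tests are also given without it. Because all groups share 1 estimate of the spread, this library also widened the errors of olaparib against DMSO (common dispersion 0.0333 with it and 0.0123 without it). The macrophage label was checked against 10 marker genes, all of which passed the filter, and whose summed level was 4897 to 6215 CPM (counts scaled to library size) in the DMSO libraries, 9337 to 11140 in the olaparib libraries and 4522 to 8092 in the MNA libraries (6192 or more without MNA replicate 2). Lyz2 held the greatest part of this sum, at 1625 to 2532 CPM in DMSO and 5114 to 6559 CPM with olaparib, and the markers did not move together. With olaparib 3 were called higher and 1 lower, and with MNA 2 higher and 1 lower. Of all tested genes 27.0% and 28.6% were called, so these counts were near the background. Cd68 was 1095 to 1309 CPM in DMSO and 813 to 869 CPM with olaparib, and Mrc1 was 548 to 829 CPM in DMSO and 129 to 185 CPM in MNA replicates 1, 3 and 4. Others were higher. Csf1r was 436 to 605 CPM in DMSO and 1649 to 1838 CPM in MNA replicates 1, 3 and 4. Itgam was 365 to 511 CPM in DMSO, 1309 to 1619 CPM with olaparib and 644 to 891 CPM in MNA replicates 1, 3 and 4. Adgre1 was 165 to 239 CPM in DMSO and 366 to 415 CPM with olaparib. Fcgr1 (at most 2.30 CPM) and Cd163 (at most 3.95 CPM) passed the filter but were near the floor in every library. The 12 libraries are bulk RNA, so fewer cells of a type and less RNA per cell cannot be told apart in any of the values that follow.

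The promoters of 4 of the genes are shown, those of both receptors, which moved in opposite directions with MNA, and those of the exporter Abca1 and the ligase Mylip as examples of their targets. The windows of Apoe, Pltp and Npc2 were searched in the same way and are not printed. Each run is the 250 bases before a RefSeq transcription start on GRCm38.p6, written 5′ to 3′ on the strand of the gene, all on the minus strand except Mylip. Capitals mark an LXR element with at most 3 mismatches and an E-box. Abca1 is chr4:53159896-53160145, Mylip is chr13:45389492-45389741, Nr1h3 is chr2:91195117-91195366 (1 of 2 listed starts) and Nr1h2 is chr7:44553966-44554215.
Abca1: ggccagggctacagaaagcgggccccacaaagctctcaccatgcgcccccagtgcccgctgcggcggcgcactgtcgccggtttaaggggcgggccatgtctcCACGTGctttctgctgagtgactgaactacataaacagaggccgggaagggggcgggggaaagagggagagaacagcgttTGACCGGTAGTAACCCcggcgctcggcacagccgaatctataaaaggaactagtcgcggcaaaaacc
Mylip: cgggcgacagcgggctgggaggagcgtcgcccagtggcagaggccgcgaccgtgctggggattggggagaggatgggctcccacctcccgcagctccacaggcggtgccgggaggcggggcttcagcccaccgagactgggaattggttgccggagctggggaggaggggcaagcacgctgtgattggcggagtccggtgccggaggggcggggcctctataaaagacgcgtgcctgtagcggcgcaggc
Nr1h3: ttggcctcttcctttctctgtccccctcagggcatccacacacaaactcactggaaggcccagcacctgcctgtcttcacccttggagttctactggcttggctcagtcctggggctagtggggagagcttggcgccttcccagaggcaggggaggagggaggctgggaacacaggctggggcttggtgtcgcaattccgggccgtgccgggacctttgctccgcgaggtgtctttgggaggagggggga
Nr1h2: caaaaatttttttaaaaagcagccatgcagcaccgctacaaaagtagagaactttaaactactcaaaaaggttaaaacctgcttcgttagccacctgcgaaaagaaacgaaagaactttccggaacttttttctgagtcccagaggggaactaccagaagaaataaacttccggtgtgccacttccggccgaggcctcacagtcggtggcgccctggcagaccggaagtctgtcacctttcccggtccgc

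The set of RefSeq promoters used here held 10 windows for 7 of the 10 genes, and it had no entry for Abcg1, Lpl and Npc1. The LXR element searched was a direct repeat, 2 copies of AGGTCA with 4 bases of any kind between them, on both strands. With at most 3 mismatches, a limit chosen after 2 mismatches had given none, it was found in the Abca1 window alone, as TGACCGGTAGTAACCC from base −67 to base −52 before the start, where it runs on the opposite strand. This tolerance is met by 18.5% of the 32817 promoter windows of the genome, against 2.57% for at most 2 mismatches and 0.0152% for none. The E-box CACGTG, searched without mismatches, was also found in the Abca1 window alone among these genes and in 6.02% of all windows. GC boxes (GGGCGG on either strand) lay in the Abca1, Mylip, Npc2 and Pltp windows and in 32.7% of all windows, and the Abca1 and Mylip boxes can be read in the runs above. A single copy of AGGTCA was in 14.0% of all windows and in 0 of the 10.

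Nr1h3 encodes LXRα, the receptor that macrophages raise on differentiation (ENSMUSG00000002108, chromosome 2, 91184061 to 91202834). Its level was 41.3, 38.6, 47.5 and 36.8 CPM in DMSO replicates 1 to 4, and 25.7, 28.8, 30.6 and 27.3 CPM in olaparib replicates 1 to 4. In MNA replicates 1, 3 and 4 it was 11.0, 11.1 and 8.49 CPM, and in MNA replicate 2 it was 32.0 CPM. All 4 DMSO libraries lay above all olaparib and all MNA libraries, and the 3 MNA libraries lay below every olaparib library. With MNA, Nr1h3 fell by 1.39 on the log2 scale (standard error 0.33, edgeR adjusted p = 0.0174), and without MNA replicate 2 the change was −2.01 (standard error 0.11, adjusted p = 1.26e-08), a level 4.03-fold lower than in DMSO. For olaparib the change was −0.55 (standard error 0.32, edgeR adjusted p = 0.218), and it passed the test without MNA replicate 2, with a log2 change of −0.55 (standard error 0.10, adjusted p = 4.65e-04).

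Nr1h2 encodes LXRβ, the broadly expressed partner receptor (ENSMUSG00000060601, chromosome 7, 44549616 to 44553951). Its level was the least variable of the 10 genes in DMSO, at 93.4, 92.4, 91.5 and 92.4 CPM, and it was 85.2, 88.9, 90.2 and 92.0 CPM with olaparib. MNA replicates 1, 3 and 4 had 121, 126 and 132 CPM, above every other library, and MNA replicate 2 had 87.3 CPM. Nr1h2 rose with MNA by a log2 fold change of 0.34 (standard error 0.10, edgeR adjusted p = 0.0325), or 0.45 (standard error 0.05, adjusted p = 5.23e-06) without MNA replicate 2. Olaparib against DMSO gave −0.05 (standard error 0.10, edgeR adjusted p = 0.727), with a 95% interval from −0.25 to 0.15. The receptors thus moved in opposite directions with MNA. Per exon length, Nr1h2 stood at 27.6 RPKM (CPM per kilobase of exon) and Nr1h3 at 16.3 RPKM in DMSO, against 37.7 and 4.05 RPKM in MNA replicates 1, 3 and 4.

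Abca1 carries the transporter that loads cholesterol onto lipid-poor apolipoproteins (ENSMUSG00000015243, chromosome 4, 53030787 to 53159895). It stood at 277, 380, 526 and 307 CPM in DMSO replicates 1 to 4, and at 167, 267, 346 and 197 CPM in the olaparib libraries of the same numbers. It was at 85.2, 129 and 81.4 CPM in MNA replicates 1, 3 and 4 and at 375 CPM in MNA replicate 2. In both DMSO and olaparib replicate 3 was the highest and replicate 1 the lowest, so the groups overlapped although olaparib was lower than DMSO in 4 of 4 same-numbered pairs. The log2 fold change was −0.61 for olaparib (standard error 0.44, edgeR adjusted p = 0.322) and −1.15 for MNA (standard error 0.45, adjusted p = 0.0683), and neither passed the test in the fit of 12 libraries. Without MNA replicate 2, Abca1 was called with MNA at −1.92 (standard error 0.27, edgeR adjusted p = 4.37e-05), a 3.78-fold lower level, and with olaparib at −0.61 (standard error 0.24, adjusted p = 0.0496). With the replicate number as a block and all 12 libraries, the MNA change was −1.36 (edgeR adjusted p = 0.0194) and the olaparib change −0.63 (adjusted p = 0.148). With the block and without MNA replicate 2, the olaparib change was −0.62 (standard error 0.067, edgeR adjusted p = 7.65e-06). The MNA change was −1.86 in that fit (adjusted p = 8.4e-10).

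Abcg1 carries the transporter that passes cholesterol to mature high-density lipoprotein (ENSMUSG00000024030, chromosome 17, 31057675 to 31117988). Its level was 702, 728, 862 and 662 CPM in DMSO, 448, 556, 672 and 480 CPM with olaparib, and 458, 485 and 391 CPM in MNA replicates 1, 3 and 4, with 688 CPM in MNA replicate 2. Olaparib replicate 3 was the only olaparib library inside the DMSO range. With MNA, Abcg1 fell by 0.55 on the log2 scale (standard error 0.17, edgeR adjusted p = 0.0352). Without MNA replicate 2 this was −0.73 (standard error 0.13, adjusted p = 3.21e-04). For olaparib the change was −0.45 (standard error 0.17, edgeR adjusted p = 0.066), and the replicate block (adjusted p = 0.0253), leaving out MNA replicate 2 (adjusted p = 0.00716) and leaving out olaparib replicate 3 (adjusted p = 0.0416) each brought it past the threshold.

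**Figure D1:**
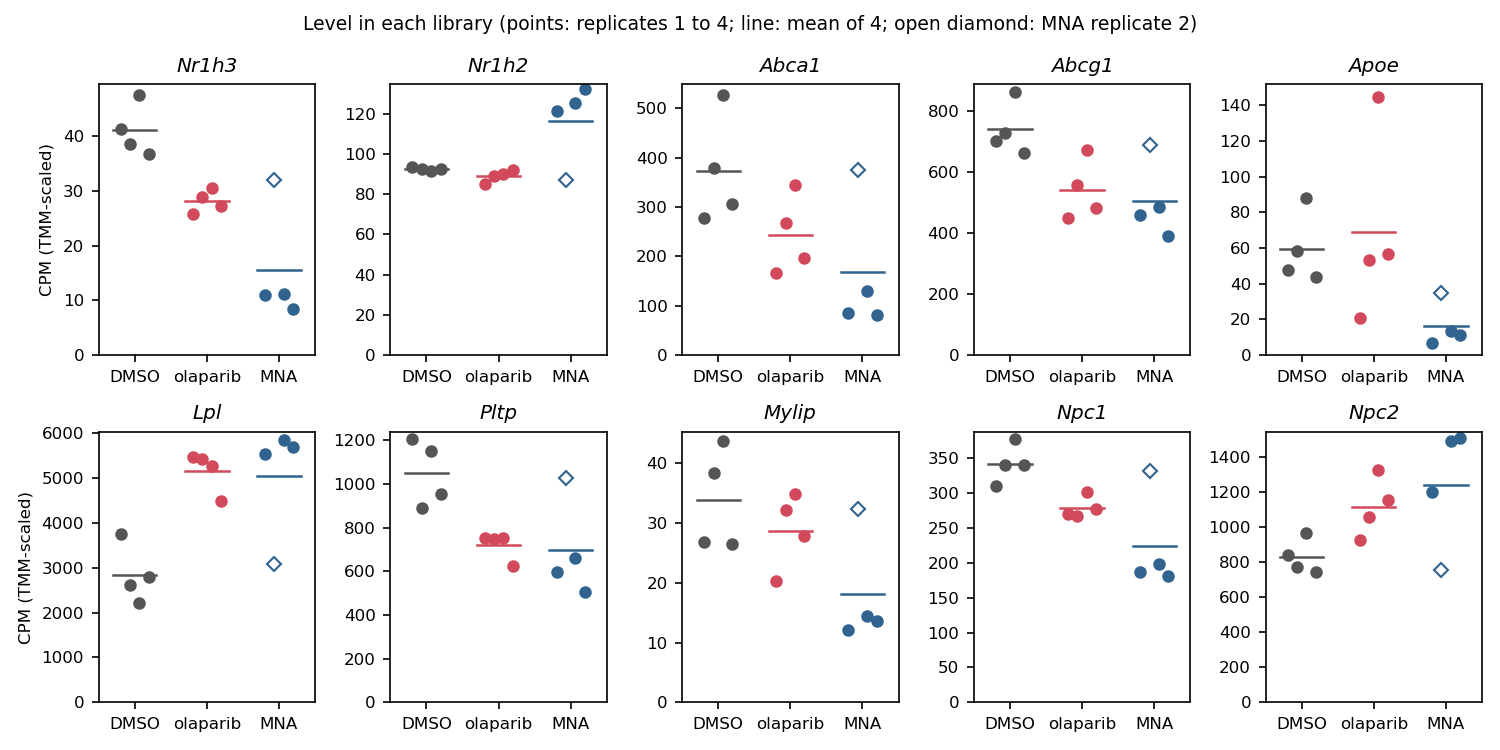
Level of each gene in CPM of the TMM-scaled library (vertical axis from 0) in the DMSO, olaparib and MNA groups. Each point is 1 library, in order of replicate number from left to right, the line is the mean of 4 libraries, and the open diamond is MNA replicate 2. For Nr1h3, Abca1, Mylip and Npc1 the 3 filled MNA points lie below all other points. The open diamond lies among the DMSO points for Abca1, Mylip and Npc1, and between the DMSO and the olaparib points for Nr1h3.

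Apoe encodes apolipoprotein E, a cholesterol acceptor that macrophages secrete (ENSMUSG00000002985, chromosome 7, 19696109 to 19699188). It was the most variable gene of the 10. DMSO replicates 1 to 4 had 47.7, 58.5, 87.7 and 44.0 CPM, olaparib replicates had 20.9, 53.2, 145 and 56.5 CPM, MNA replicates 1, 3 and 4 had 6.66, 13.5 and 11.2 CPM, and MNA replicate 2 had 35.0 CPM. All 4 MNA libraries lay below all 4 DMSO libraries, and Apoe fell with MNA by 1.84 on the log2 scale (standard error 0.57, edgeR adjusted p = 0.0348), or −2.51 (standard error 0.52, adjusted p = 0.00107) without MNA replicate 2. The olaparib libraries spread on both sides of the DMSO libraries, with a log2 fold change of 0.21 (standard error 0.55, edgeR adjusted p = 0.80) whose sign turned without olaparib replicate 3 (−0.45).

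Lpl encodes lipoprotein lipase, which frees fatty acids from triglyceride-rich lipoproteins (ENSMUSG00000015568, chromosome 8, 68880491 to 68907448). Its DMSO levels were 3758, 2621, 2203 and 2801 CPM, and its olaparib levels were 5450, 5418, 5251 and 4480 CPM. It was at 5531, 5840 and 5689 CPM in MNA replicates 1, 3 and 4 and at 3071 CPM in MNA replicate 2. Every olaparib library was above every DMSO library. Lpl was the 1 gene of the 10 that was called higher with both treatments in the fit of 12 libraries. Its log2 fold change was 0.86 with olaparib (standard error 0.20, edgeR adjusted p = 0.0108) and 0.82 with MNA (standard error 0.20, adjusted p = 0.0194). Without MNA replicate 2 these were 0.85 (adjusted p = 1.14e-04) and 0.997 (adjusted p = 2.68e-05), and over the 12 fits that left out 1 library each, the edgeR adjusted p for olaparib stayed between 1.14e-04 and 0.0347. For olaparib against MNA the difference was 0.03, with a 95% interval from −0.36 to 0.43.

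Pltp encodes phospholipid transfer protein, an LXR target that remodels high-density lipoprotein (ENSMUSG00000017754, chromosome 2, 164839518 to 164857711). It had 1204, 891, 1149 and 956 CPM in DMSO, 754, 746, 753 and 625 CPM with olaparib, 599, 660 and 503 CPM in MNA replicates 1, 3 and 4, and 1026 CPM in MNA replicate 2. The DMSO and olaparib libraries did not overlap. Pltp fell with olaparib by 0.54 on the log2 scale (standard error 0.19, edgeR adjusted p = 0.048). That call was lost in 9 of the 12 fits with 1 library left out and held without MNA replicate 1, 2 or 4 (highest adjusted p 0.123). With MNA Pltp fell by 0.59 (standard error 0.19, edgeR adjusted p = 0.0364), a call lost in 8 of these 12 fits (highest adjusted p 0.102). Without MNA replicate 2 the changes were −0.55 (adjusted p = 0.00101) and −0.84 (adjusted p = 3.88e-05). Pltp overlaps Ctsa on the opposite strand and shares 13.9% of its 31-base words with it, and the strand column of the counts is not given in the sources used here, so reads of these genes cannot be told apart with certainty.

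Mylip encodes the ligase that sends lipoprotein receptors to lysosomes (ENSMUSG00000038175, chromosome 13, 45389742 to 45412022). Its levels were 26.8, 38.3, 43.6 and 26.4 CPM in DMSO, 20.2, 32.1, 34.7 and 27.7 CPM with olaparib, 12.2, 14.5 and 13.5 CPM in MNA replicates 1, 3 and 4, and 32.3 CPM in MNA replicate 2. MNA replicates 1, 3 and 4 were below every other library. Mylip fell with MNA by 0.90 on the log2 scale (standard error 0.30, edgeR adjusted p = 0.0434), or −1.34 (standard error 0.20, adjusted p = 7.69e-05) without MNA replicate 2. With olaparib its change was −0.24 (standard error 0.30, edgeR adjusted p = 0.574), with a 95% interval from −0.82 to 0.34, and it was not called without MNA replicate 2 either (adjusted p = 0.286).

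Npc1 and Npc2 encode the membrane and the soluble protein that hand cholesterol out of the lysosome in sequence. Npc1 (ENSMUSG00000024413, chromosome 18, 12189692 to 12236400) had 310, 339, 377 and 339 CPM in DMSO, 269, 267, 301 and 276 CPM with olaparib, 187, 197 and 181 CPM in MNA replicates 1, 3 and 4, and 331 CPM in MNA replicate 2. All olaparib libraries were below all DMSO libraries. Npc1 fell with MNA by 0.61 on the log2 scale (standard error 0.16, edgeR adjusted p = 0.0232; −0.86 and adjusted p = 3.51e-07 without MNA replicate 2). The olaparib change was −0.30 (standard error 0.16, edgeR adjusted p = 0.193), and it was called without MNA replicate 2 (adjusted p = 0.00239). Npc1 overlaps Rmc1 on the opposite strand and shares 5.78% of its 31-base words with other genes.

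Npc2 (ENSMUSG00000021242, chromosome 12, 84754562 to 84773152) went the other way. It had 839, 772, 964 and 742 CPM in DMSO, 926, 1057, 1326 and 1154 CPM with olaparib, 1200, 1491 and 1503 CPM in MNA replicates 1, 3 and 4, and 755 CPM in MNA replicate 2. It rose with MNA by a log2 fold change of 0.58 (standard error 0.19, edgeR adjusted p = 0.0421), or 0.75 (adjusted p = 1.32e-04) without MNA replicate 2. The olaparib change of 0.43 (standard error 0.19, edgeR adjusted p = 0.112) was called without MNA replicate 2 (adjusted p = 0.00749), and olaparib was higher than DMSO in 4 of 4 same-numbered pairs. Both lysosomal partners thus changed with MNA, Npc1 down and Npc2 up.

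Counted together, 9 of the 10 genes were called with MNA against DMSO, 3 higher and 6 lower, where 28.6% of all tested genes were called (16.3% higher and 12.3% lower). The gene that was not called was Abca1. With olaparib 2 of the 10 were called, Lpl higher and Pltp lower, where 27.0% of all tested genes were called (14.3% higher and 12.8% lower), so the olaparib count was near the background. Both comparisons use the same DMSO libraries, and the 10 genes were chosen with earlier results of these data known. The median log2 fold change of the 10 genes was −0.60 with MNA and −0.27 with olaparib, against 0.0002 and 0.0038 over all tested genes. Without MNA replicate 2 the MNA count was 10, 3 higher and 7 lower, where 54.1% of all tested genes were called (27.2% higher and 26.9% lower). The olaparib count was then 7, where 43.7% were called (22.5% higher and 21.2% lower). The 7 were Nr1h3, Abca1, Abcg1, Pltp and Npc1 lower and Lpl and Npc2 higher, which left out Nr1h2, Apoe and Mylip.

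The MNA count depended on single libraries in the fit of 12. It was 0 without MNA replicate 1, 3 or 4, 1 without DMSO replicate 2 or 3, 2 without DMSO replicate 4 and 3 without DMSO replicate 1, and 6 to 9 without an olaparib library. The share of all tested genes called fell as well, from 28.6% to 6.5%, 3.55% and 3.86% without MNA replicate 1, 3 and 4, to 10.4%, 9.48%, 13.2% and 20.5% without DMSO replicate 2, 3, 4 and 1, and to 23.5%, 22.0%, 23.6% and 24.2% without olaparib replicate 1, 2, 3 and 4. In each of these fits MNA replicate 2 was still among the MNA libraries. By gene, the MNA call was lost in 10 of the 12 fits with 1 library left out for Mylip, 9 for Npc2 and 8 for Pltp. It was lost in 7 for Nr1h2, Abcg1 and Apoe, 6 for Npc1, 5 for Lpl and 3 for Nr1h3. A fit of the MNA and DMSO libraries alone called 0 of the 10 genes with edgeR and 0 of all genes (0.0%), of which 4728 had an unadjusted p under 0.05, and the same fit without MNA replicate 2 called all 10, against 52.9% of all genes. The groups did not overlap for Nr1h3 and Apoe in MNA against DMSO (12.4% of all tested genes did not overlap), and for all 10 genes once MNA replicate 2 was set aside (54.4%). In olaparib against DMSO they did not overlap for Nr1h3, Lpl, Pltp and Npc1 (41.0% of all tested genes).

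With the replicate number as a block, 3 genes were called for olaparib and 10 for MNA against DMSO, and 4 between the treatments, where 28.8%, 32.4% and 22.2% of all tested genes were called. With the block and without MNA replicate 2 these were 7, 10 and 9 genes (47.0%, 55.0% and 44.1%). DESeq2 called 3, 9 and 3 (32.0%, 34.6% and 26.1%). The fit of the olaparib and DMSO libraries alone called 7 (45.4%), that of olaparib and MNA alone 0 (14.4%), and the latter without MNA replicate 2 called 8 (41.3%).

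**Figure D2:**
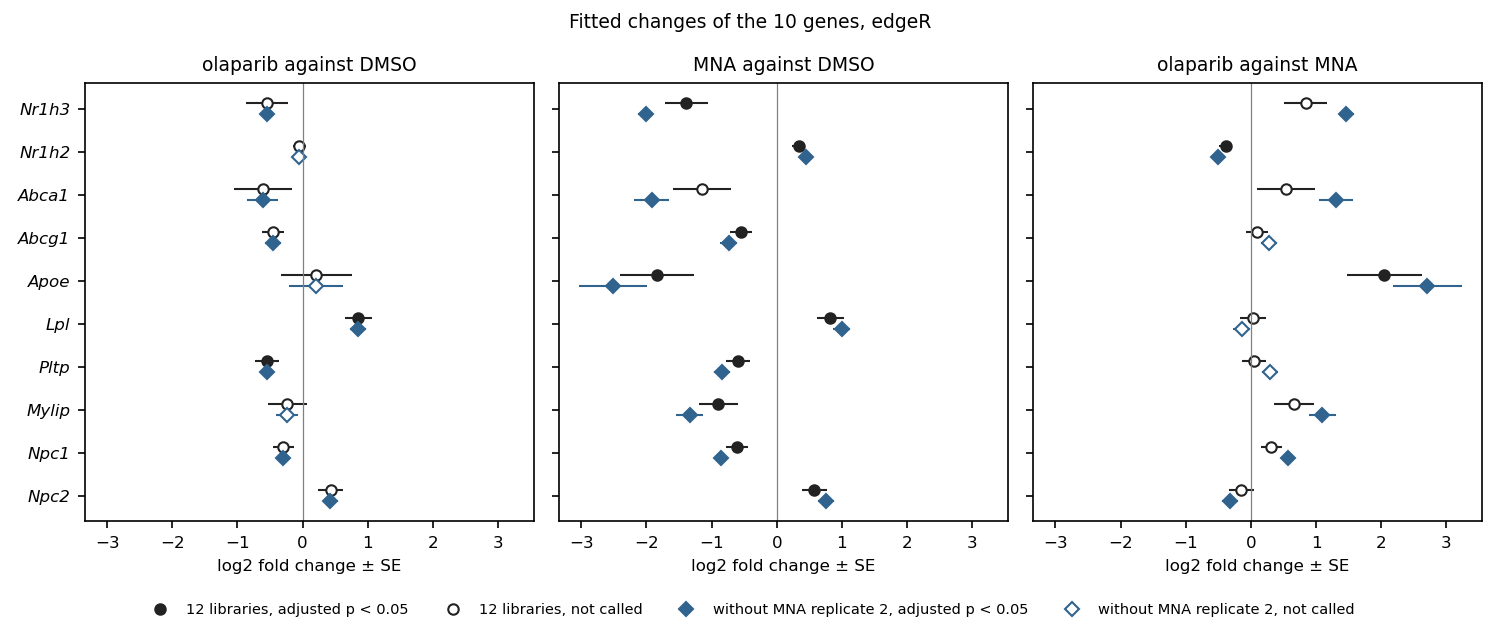
Log2 fold change of each gene (horizontal axis, bars are 1 standard error) from edgeR for each treatment against DMSO and, at the right, for olaparib against MNA. Circles are the fit of 12 libraries, diamonds the fit without MNA replicate 2, and filled symbols have an adjusted p under 0.05. In MNA against DMSO 9 of 10 circles and 10 of 10 diamonds are filled, and the diamonds lie farther from 0 than the circles.

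Olaparib and MNA were also compared directly, with no DMSO library in the difference. Only Apoe and Nr1h2 were called among the 10 genes, where 21.8% of all tested genes were called (10.9% in each direction). Apoe was higher with olaparib by a log2 fold change of 2.05 (standard error 0.58, edgeR adjusted p = 0.0251) and Nr1h2 was lower by −0.39 (standard error 0.10, adjusted p = 0.0188). Leaving out olaparib replicate 3 or MNA replicate 1, 3 or 4 ended the Apoe call (highest adjusted p 0.0865), and leaving out olaparib replicate 1 or MNA replicate 3 or 4 ended the Nr1h2 call (highest adjusted p 0.0561). Without MNA replicate 2, 7 of the 10 were called, where 42.3% of all tested genes were (21.5% higher and 20.7% lower). Nr1h3 (log2 fold change 1.46), Apoe (2.71), Abca1 (1.31), Mylip (1.10) and Npc1 (0.56) were then higher with olaparib than with MNA, and Nr1h2 (−0.50) and Npc2 (−0.33) lower. Abcg1, Pltp and Lpl were not called in that fit without the replicate block, with differences of 0.28 (95% interval 0.02 to 0.53, edgeR adjusted p = 0.0998), 0.29 (0.07 to 0.52, adjusted p = 0.0552) and −0.14 (−0.41 to 0.12, adjusted p = 0.419). With the block, Abcg1 (0.26, edgeR adjusted p = 0.0154) and Pltp (0.33, adjusted p = 0.00385) were called higher with olaparib and Lpl was not called (−0.15, adjusted p = 0.36). The olaparib and MNA libraries overlapped for all 10 genes with MNA replicate 2 (21.2% of all tested genes did not overlap), and without it they did not overlap for 7 (46.3%), namely Nr1h3, Nr1h2, Abca1, Apoe, Lpl, Mylip and Npc1.

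Levels of different genes were compared per union exon length. In DMSO Pltp (410 RPKM) and Lpl (272 RPKM) were highest and their ranges overlapped, followed by Npc2 (152 RPKM) and Abcg1 (101 RPKM), each apart from its neighbours. Abca1 (35.9), Npc1 (30.2), Apoe (27.8) and Nr1h2 (27.6 RPKM) had overlapping ranges, and Nr1h3 (16.3 RPKM) and Mylip (10.5 RPKM) were lowest. In the olaparib and the MNA groups Lpl came first, at 491 and 480 RPKM, and Pltp second, at 281 and 272 RPKM. In MNA replicates 1, 3 and 4 Npc2 (257 RPKM) stood above Pltp (229 RPKM), with overlapping ranges. With the length of the principal coding transcript in place of all exons, Lpl came first in DMSO too, Abca1 moved there from place 5 to place 8, and Npc2 took place 2 and Pltp place 3 in both treated groups.

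**Figure D3:**
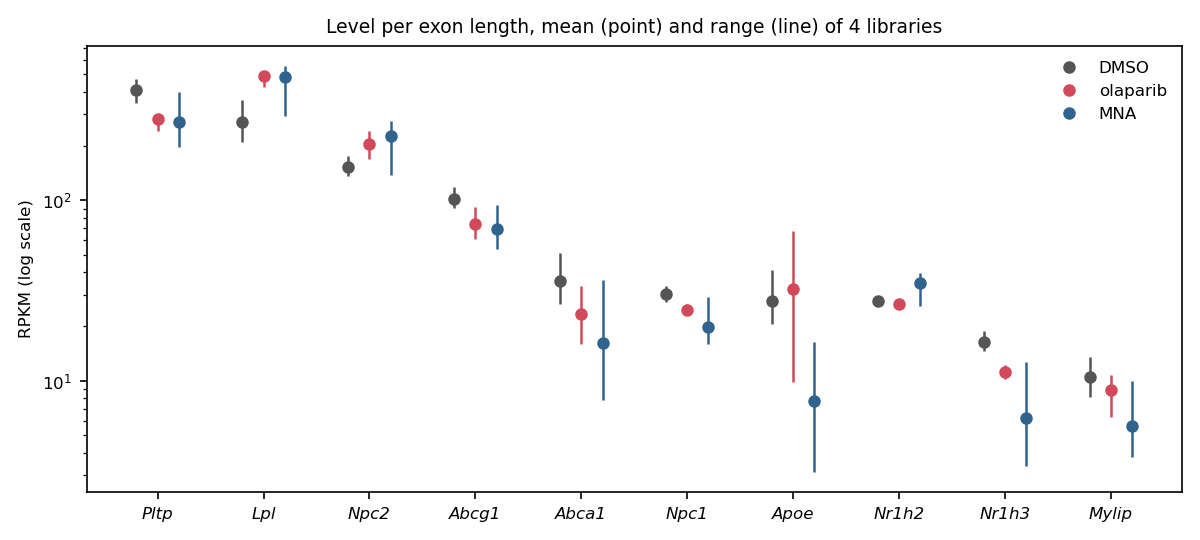
Level per exon length in RPKM (log axis) of the 10 genes, ordered by their DMSO mean, in the DMSO, olaparib and MNA groups. Points are means and lines the lowest to highest of 4 libraries, MNA replicate 2 included. Lpl rises above Pltp in both treated groups, and the MNA lines of Abca1, Apoe, Nr1h3 and Mylip are long because MNA replicate 2 lies above the other MNA libraries.

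Among themselves, Abcg1 and Npc1 had the most similar profiles over the 12 libraries (root-mean-square difference of mean-centred log2 CPM 0.167), then Abcg1 and Pltp (0.169), Pltp and Npc1 (0.195) and, among the genes that rose, Nr1h2 and Npc2 (0.254). Replicate 3 was the highest library for 7 of the 10 genes in DMSO and for 7 in olaparib. Of all tested genes with a mean of at least 10 CPM, the closest to Nr1h3 were Dhrs3 (0.146) and Cblb (0.171), to Abca1 Fam124a (0.177) and Shisa2 (0.224), to Mylip Bbc3 (0.207) and Mrgpre (0.215), to Lpl Nek6 (0.118) and Apbb1ip (0.121), and to Apoe Fbxo32 (0.512) and Timp2 (0.555). The other 5 genes varied too little for such a comparison (SD of log2 CPM under 0.5). These distances are descriptions over libraries that share treatments and donors.

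The genes around the LXR pathway were then described by lists. Of 15 LXR partners and coregulators, 14 were tested, with 1 higher and 4 lower with olaparib and 0 higher and 3 lower with MNA, where 27.0% and 28.6% of all tested genes were called. The olaparib count was near that background and the MNA count not above it. Rxra, the retinoid X receptor that pairs with LXR, moved in opposite directions. It was 52.1 ± 2.6 CPM in DMSO (SD, n = 4), rose to 77.0 ± 6.07 CPM with olaparib (log2 fold change 0.56, standard error 0.08, edgeR adjusted p = 8.45e-04) and was 36.8 ± 1.17 CPM in MNA replicates 1, 3 and 4 with 44.7 CPM in MNA replicate 2 (−0.42, standard error 0.08, adjusted p = 0.0142). The difference between the treatments was itself called (0.99, adjusted p = 1.80e-05). The corepressor Ncor1 fell with olaparib by 0.26 (adjusted p = 0.00941), and the coactivator Crebbp fell by 0.29 with olaparib (adjusted p = 0.0242) and by 0.30 with MNA (adjusted p = 0.0254), calls that 4 and 5 of the fits with 1 library left out lost. Tbl1xr1, part of the corepressor complex, fell by 0.32 with MNA (adjusted p = 0.0213).

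Of 20 further LXR target genes, 14 were tested. With olaparib 3 were higher and 1 lower (27.0% of all tested genes called), which is near the background, and with MNA 5 were higher and 3 lower (28.6%). Cd5l, a protein that macrophages secrete and that protects them from apoptosis, was 14.7 ± 5.55 CPM in DMSO and 63.8 ± 7.42 CPM with olaparib (SD, n = 4; log2 fold change 2.13, edgeR adjusted p = 0.00688), and 1.06 ± 0.338 CPM in MNA replicates 1, 3 and 4 with 6.41 CPM in MNA replicate 2 (-2.57, adjusted p = 0.0142). It was thus up-regulated by one treatment and down-regulated by the other, and the difference between them was called (4.70, adjusted p = 1.58e-04). Mertk, a receptor for apoptotic cells, rose with olaparib from 16.8 ± 2.29 to 37.4 ± 4.77 CPM (1.16, standard error 0.14, adjusted p = 3.10e-04) and stood at 16.2 ± 2.98 CPM with MNA (−0.05, adjusted p = 0.788). The fatty acid genes of this list did not all move with MNA. Fasn, fatty acid synthase, was 59.1 ± 7.82 CPM in DMSO, 153 ± 21.9 CPM in MNA replicates 1, 3 and 4 and 69.1 CPM in MNA replicate 2 (1.16, adjusted p = 0.0142), and Fads2, a fatty acid desaturase, was 0.50 ± 0.333, 11.3 ± 3.34 and 0.967 CPM in the same order (4.08, adjusted p = 0.0142). Scd2, a stearoyl-CoA desaturase, had 477 to 616 CPM in DMSO and 478 to 594 CPM in MNA replicates 1, 3 and 4, and Scd1, another one, had 18.3 to 30.1 CPM and 29.4 to 41.9 CPM in the same libraries. Abca7, a transporter related to Abca1, rose with olaparib by 0.51 (adjusted p = 0.00536) and with MNA by 0.34 (adjusted p = 0.0337).

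Of 9 genes for oxysterols, 4 were tested. Ch25h, the enzyme that makes an oxysterol ligand from cholesterol, had 555, 757, 975 and 717 counts in DMSO, 284, 130, 90 and 261 counts with olaparib, 3, 3 and 4 counts in MNA replicates 1, 3 and 4, and 657 counts in MNA replicate 2. MNA replicate 2 thus had a DMSO-like count where the other 3 had almost none. With all 12 libraries Ch25h was not called (MNA adjusted p = 0.149, olaparib adjusted p = 0.203, edgeR), and without MNA replicate 2 both calls were made (adjusted p = 1.74e-08 and 2.05e-05), with a log2 fold change of −1.93 for olaparib. Cyp27a1, which makes another oxysterol, rose with MNA from 5.25 ± 1.04 CPM in DMSO to 16.1 ± 2.12 CPM in MNA replicates 1, 3 and 4, with 5.05 CPM in MNA replicate 2 (1.34, adjusted p = 0.0163, lost without MNA replicate 1, 3 or 4). Gpr183, an oxysterol receptor, rose with olaparib from 0.721 ± 0.412 to 2.63 ± 0.814 CPM (1.89, adjusted p = 0.0132). Hsd3b7, a bile acid route enzyme, had log2 changes of −0.07 with olaparib (adjusted p = 0.711) and −0.28 with MNA (edgeR adjusted p = 0.134), and its MNA change was called without MNA replicate 2 (−0.38, adjusted p = 0.0172).

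The SREBP2 list showed the other arm of control, and all 20 of its genes were tested. With MNA 17 were higher and 1 lower, with a median log2 fold change of 1.09 (1.32 without MNA replicate 2), and with olaparib 1 was higher and 1 lower, with a median of 0.30 and 16 of 20 above 0. Of all tested genes 16.3% were higher and 12.3% lower with MNA, and 14.3% and 12.8% with olaparib. The list was chosen with earlier results of these data known. Idi1 (2.71), Cyp51 (2.08), Fdft1 (1.99) and Fdps (1.87), enzymes of the synthesis route, rose with MNA on the log2 scale. Sqle, the enzyme of a rate-limiting step, rose by 1.05 (edgeR adjusted p = 0.0142), and Srebf2, the gene of SREBP2 itself, rose by 1.08. Dhcr7 was the 1 gene of the list that fell with MNA in the fit of 12 libraries (by 0.60, edgeR adjusted p = 0.0238). Insig2, a sterol sensor, was called lower too without MNA replicate 2 (−0.35, adjusted p = 0.00167, against −0.24 and 0.075 with it). The number higher with MNA was 10, 11 and 13 without MNA replicate 4, 3 and 1 (3.41%, 3.13% and 5.31% of all tested genes), and 16 or 17 without any other library. In olaparib against MNA 13 of the 20 were lower and 1 higher (10.9% of all tested genes in each direction). Insig1, the sterol sensor that holds SREBP2 back and is itself a target of it, fell with olaparib from 100 ± 17.0 to 52.5 ± 3.39 CPM (−0.93, standard error 0.12, adjusted p = 3.53e-04) and had 98.3 ± 11.2 CPM with MNA (−0.03, adjusted p = 0.878). Nsdhl rose with olaparib by 0.57 (adjusted p = 0.0157), and without MNA replicate 2 the olaparib counts became 11 higher, Pmvk among them (0.57, adjusted p = 0.0141), and 1 lower, where 22.5% of all tested genes were higher and 21.2% lower.

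**Figure D4:**
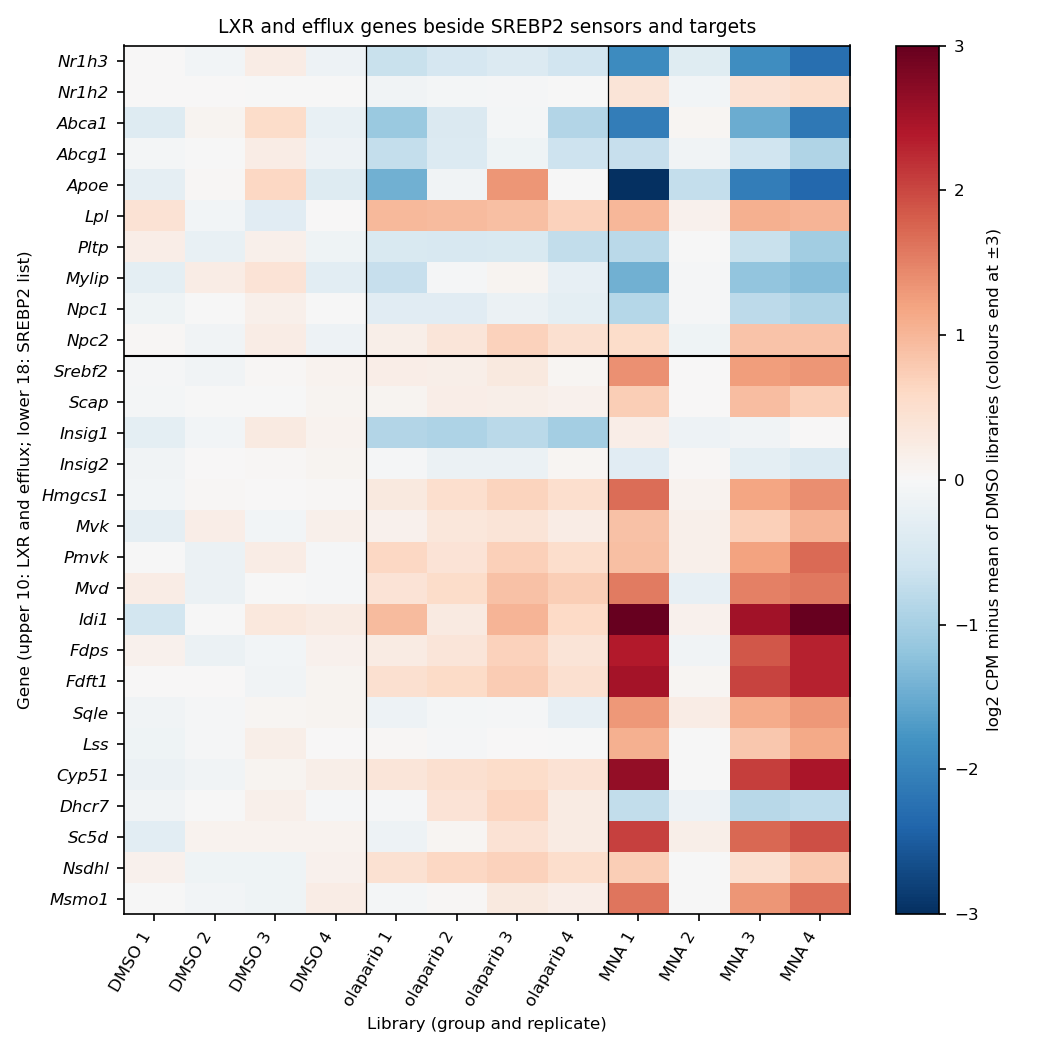
Log2 CPM of each gene (rows) in each library (columns) minus the mean of the 4 DMSO libraries, red above and blue below, with colours ending at 3 in either direction. The upper 10 rows are the LXR and efflux genes and the lower 18 are from the SREBP2 list. In MNA replicates 1, 3 and 4 most upper rows are blue and most lower rows red, and MNA replicate 2 has the pale colours of the DMSO columns.

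Of 34 genes of cholesterol uptake, the ester cycle and intracellular transport, 31 were tested, with 5 higher and 1 lower with olaparib, below the 27.0% of all tested genes called, and 7 higher and 6 lower with MNA (28.6%). Scarb1, a receptor that exchanges cholesterol with high-density lipoprotein, rose with MNA by a log2 fold change of 0.95 (edgeR adjusted p = 0.0142), and Gramd1a, which moves cholesterol from the plasma membrane inward, rose with olaparib (0.41, adjusted p = 0.0176) and MNA (0.55, adjusted p = 0.0142). With olaparib Lamp2, a lysosomal membrane protein, rose from 1038 ± 47.1 to 1695 ± 194 CPM (0.71, adjusted p = 4.39e-04), Tspo rose (0.48, adjusted p = 0.0133) and Nceh1, a cholesteryl ester hydrolase, fell by 0.51 (adjusted p = 0.004).

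Of 13 lipase cofactors and inhibitors, 9 were tested, with 1 higher and 2 lower with olaparib (27.0% of all tested genes called, near the background) and 2 higher and 3 lower with MNA (28.6%). Sdc4, a heparan sulfate proteoglycan of the cell surface, fell with olaparib from 50.6 ± 8.13 to 23.5 ± 5.55 CPM (-1.10, edgeR adjusted p = 0.00316) and rose with MNA (0.65, adjusted p = 0.0336), although Lpl rose with both. Sel1l, needed for maturation of the lipase, fell with olaparib by 0.36 (adjusted p = 0.0101) and with MNA by 0.29 (adjusted p = 0.0283). Sorl1, a sorting receptor that binds the lipase, rose from 0.607 ± 0.156 CPM in DMSO to 1.68 ± 0.474 CPM with olaparib (1.45, adjusted p = 0.0355) and to 4.02 ± 0.167 CPM in MNA replicates 1, 3 and 4 (2.38, adjusted p = 0.0142). Among named list genes, the MNA calls of Crebbp, Tbl1xr1, Abca7, Nsdhl, Dhcr7, Pmvk, Sdc4 and Sel1l were lost without MNA replicate 3 or 4. All of these calls but that of Pmvk were also lost without DMSO replicate 3. Leaving out DMSO replicate 3 or olaparib replicate 4 ended the olaparib call of Gramd1a, and leaving out any 1 DMSO library or olaparib replicate 2, 3 or 4 ended that of Sorl1.

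Markers of other cells that express some of these genes were low but not equal. The 10 adipocyte and stromal markers summed to 1.13 to 3.38 CPM over all libraries, with Cfd at 0, beside Lpl at 2203 CPM or more. The 10 neutrophil markers summed to 1.38 to 10.9 CPM in DMSO, 3.07 to 4.09 CPM with olaparib and up to 69.3 CPM with MNA. This highest sum was that of MNA replicate 4. The 8 erythroid markers reached 56.9 CPM in the same library, with Hba-a2 at 0 in all. In MNA replicate 4 Hba-a1 was 48.3 CPM and S100a9 20.8 CPM, against at most 2.67 and 2.70 CPM in any other library. The 10 dendritic cell markers summed to 33.8 to 38.4 CPM in DMSO, 44.8 to 51.8 CPM with olaparib and 40.0 to 60.2 CPM with MNA. The 8 T and NK cell markers summed to 3.06 to 4.39, 11.8 to 19.9 and 3.01 to 7.90 CPM in the same order. Klrb1c held most of this sum with olaparib, at 10.6 to 16.0 CPM against 2.20 to 3.35 CPM in DMSO. Each of the other T and NK markers, Cd3e, Cd3d and Cd3g among them, was at most 0.975 CPM with olaparib. The 8 B cell markers summed to at most 7.26 CPM, and the 8 mast cell and basophil markers to at most 1.62 CPM with Mcpt4 at 0. The part of these markers in the changes above was not tested.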

How the data were processed

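RNA of 12 cultures was measured, 4 each with DMSO, olaparib and MNA. Per the labels, the authors aligned reads of a stranded mRNA kit with STAR 2.5.2b to GRCm38.p5, and the values they deposited are raw counts of reads per gene. The strand column is not given in the sources used here. Depth was 21146291 to 31446849 counts per library. Names, positions and exon lengths were read from GENCODE on GRCm38 (34490 of 35275 genes matched).

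Genes were kept by filterByExpr (minimum count 10, minimum total 15), which left 12849. Tests used edgeR 4.0.16 in R 4.3.3 (quasi-likelihood F test, TMM, 1 fit of 12 libraries, no block, Benjamini-Hochberg over all tested genes, threshold 0.05). The standard error is the log2 fold change divided by the root of F, and 95% intervals follow from it. CPM are of the TMM-scaled library, with a prior count of 2 on the log2 scale. Scripts were tested on simulated counts. Alternatives were DESeq2 1.42.0, other normalizations and filters, the replicate block, fits of 2 groups, stricter thresholds and each library left out. Fits of 2 groups without MNA replicate 2 and the principal transcript length were added after the data were seen.

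The named genes are the 10, from each list the 3 with the smallest p in olaparib and the 3 in MNA against DMSO, and the 2 nearest profiles of each gene that varied. Cyp51, Fdps, Idi1, Srebf2 and Dhcr7 were named after their values were seen. Insig2, Scd1, Scd2 and the cell markers given singly were also named outside this rule. Some list genes enter the counts of their list but are not reported here singly. The members and lists were chosen with earlier results of these data known. As a check of pairing, deviations from group means were correlated across genes between olaparib and DMSO libraries of 1 number (Pearson r 0.227, 0.172, 0.225 and 0.408), so these numbers pair. Between MNA and DMSO r was 0.242, 0.114, −0.009 and 0.277, and without number 2 it was 0.175, 0.175 and 0.329. Beyond the donor count no source says how cultures were separated, and p-values measure the spread between these libraries.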

Additional observations from a re-analysis of the deposited data

Results flagged for a closer look

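In 6 of 30 groups of 4 libraries, 1 library lay far from the other 3 (gap to the nearest of them over the group's range above Dixon's 95% critical value for 4 samples). Chance flags about 1 group in 20. In the MNA group it was MNA replicate 2 for 5 genes. Nr1h3 stood at 32.0 CPM there (gap over range 0.888), Abca1 at 375 CPM (0.837), Mylip at 32.3 CPM (0.886) and Npc1 at 331 CPM (0.89), each above the other 3 MNA libraries, and Lpl stood at 3071 CPM (0.889), below them. Pltp in olaparib replicate 4, at 625 CPM (0.939), lay below the other 3 olaparib libraries.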

How the results depend on the processing

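Of 10 genes in 3 comparisons, 28 to 30 of the 30 log2 fold changes kept their sign when 1 library was left out. The signs that turned were of changes smaller than their standard error in the fit of 12 libraries. Apoe in olaparib against DMSO was −0.0059 with the replicate block and −0.45 without olaparib replicate 3. In olaparib against MNA, Abcg1 was −0.029 without olaparib replicate 3 and −0.014 without MNA replicate 4, Pltp was −0.022 without MNA replicate 1 and −0.084 without MNA replicate 4, and Lpl was −0.14 without MNA replicate 2, −0.15 with the block as well and −0.14 in the 2 groups alone without it. With 1 library left out, these 4 ranged from −0.45 to 0.51 (Apoe), −0.029 to 0.28 (Abcg1), −0.14 to 0.10 (Lpl) and −0.084 to 0.29 (Pltp). The cause was not tested.

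Of the 10 genes, those called in olaparib against DMSO (2) numbered 1 with upper-quartile normalization (3435 of all 12849 tested genes called). They numbered 1 with a mean of at least 50 counts (3136 of 10624) and 1 with a change of at least 1.5-fold (1574 of 12849). At an edgeR adjusted p under 0.01 they numbered 0 (1382 of 12849, and 5280 had an unadjusted p under 0.05). They numbered 7 in the 2 groups alone (5720 of 12596), with or without MNA replicate 2, and 1 to 7 with 1 library left out. In MNA against DMSO (9) they numbered 0 at 0.01, where 0 of all 12849 tested genes were called (5756 under 0.05 unadjusted). That 0 is therefore not particular to the 10 genes. They numbered 0 in the 2 groups alone (0 of 12379) and 0 to 10 with 1 library left out. In olaparib against MNA (2) they numbered 1 with a 1.5-fold change (1253 of 12849) and 0 at 0.01 (1166 of 12849, and 4527 under 0.05 unadjusted). They numbered 0 in the 2 groups alone (1808 of 12580). In these without MNA replicate 2 they numbered 8 (5290 of 12796), and with 1 library left out 0 to 7. For the pathway lists, olaparib against DMSO (21) gave 52 in the 2 groups alone with or without MNA replicate 2, 9 at 0.01, 8 with a 1.5-fold change and 13 to 50 with 1 library left out, MNA against DMSO (48) gave 0 in the 2 groups alone, 0 at 0.01 and 19 to 67, and olaparib against MNA (35) gave 65 in the 2 groups alone without MNA replicate 2, 17 at 0.01 and 30 to 66. Apart from the fits with 1 library left out, the numbers of all tested genes called in these settings are those given above. With the principal transcript length, the DMSO RPKM of 8 of the 10 genes moved by more than 1 SD.

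With the replicate number as a block, 3, 10 and 4 of the 10 genes were called in the 3 comparisons, against 2, 9 and 2 without it, and 7, 10 and 9 with the block and without MNA replicate 2, when the lists gave 52, 68 and 67. The block added Abcg1 (olaparib), Abca1 (MNA), and Nr1h3 (adjusted p = 0.0453) and Mylip (0.0305) in olaparib against MNA, and ended no call of the 10 genes. With that library left out it added Abcg1 (0.0154) and Pltp (0.00385) in olaparib against MNA. The lowest count of the 10 genes was 162, of Apoe in an MNA library, and an effect of depth on the calls was not tested.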
